A study of Homo sapiens with 6 samples.

Results

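MYC and the proteins that share its dimer partner MAX form a small network of basic helix-loop-helix leucine zipper transcription factors. The genes examined were MYC, MAX, MXD1, MXD3, MXD4, MXI1, MNT, MLX and MGA, taken by name from the annotation of the array, with the brightest probe set standing for a gene. Of these 9 genes 8 had a probe set named here, 1 probe set each, among the 17687 genes measured by 21448 transcript probe sets, and MXD4 was not analysed. MYC binds DNA as a dimer with MAX and activates genes of growth and ribosome production. MXD1, MXI1, MXD3 and MNT compete for MAX and bring corepressors of the SIN3 family to the same sites, and MGA does so through a Polycomb complex. MLX is the dimer partner of the glucose-responsive factors MLXIP (MondoA) and MLXIPL, which links the network to metabolism. MYC is a classical early target of growth factor signalling in epithelial cells.

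RNA came from A431, an established line of human epidermoid carcinoma cells that carries a very high level of the EGF receptor (EGFR). The cells of all 3 groups were grown with 10% serum and starved for 24 h. One group was given 100 ng/ml EGF together with 10 µM gefitinib, which blocks the kinase of EGFR, one was given 100 ng/ml EGF, and the control group was left untreated. Cells were harvested at 30 min. Whether gefitinib went in before or with EGF is not labelled, and no group received gefitinib without EGF. Each group held 2 arrays, 1 per sample. The arrays of a group are called biological replicates, with no word on separate cultures. The p-values therefore cover only the spread seen among these samples, and that spread may be technical. Precision is limited by the number of arrays.

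Between 38.4% and 42.1% of the transcript probe sets on an array lay above the limit set by its negative-control probe sets (7.14 to 7.65), and arrays of a group correlated at 0.991 to 0.994 across probe sets. All 6 measured keratinocyte markers (KRT5, KRT14, KRT16, SFN, ITGB4 and DSP) lay above the limit on all 6 arrays. Of the markers of other cell types, 4 of 6 fibroblast, 4 of 5 leukocyte and 4 of 5 endothelial genes lay below it on every array. LUM and CD68 lay above it on all 6, and PTPRC, CD3E, PECAM1, COL1A1 and PDGFRA were among those below. The summed log2 level of the fibroblast markers was 33.8 to 34.8 with EGF plus gefitinib, 33.1 to 33.8 with EGF and 36.6 to 37.2 in control. For leukocyte markers the sum was 30.5 to 30.9, 31.8 to 32.3 and 32.1 to 32.3 in the same groups, and for endothelial markers 22.97 to 23.05, 20.05 to 20.3 and 21.81 to 22.43. The part of these shifts in the results was not tested. Of 8 reporters of EGF signalling, 5 of them above the limit on at least 2 arrays, 5 rose with EGF. With gefitinib 4 were lower and 1 was higher than with EGF alone. Rises with EGF included DUSP6 (4.04 ± 0.20), FOSL1 (4.01 ± 0.24), PHLDA1 (2.72 ± 0.25) and IER3 (2.40 ± 0.21). FOSL1 (−4.00 ± 0.24) and DUSP6 (−1.43 ± 0.20) were lower with gefitinib than with EGF alone. SPRY4, also lower, did not exceed the limit in either of these groups. ETV5 was at least 2.608-fold higher with gefitinib than with EGF alone. Of all probe sets 6.61% were called higher with EGF, and 9.81% lower with gefitinib than with EGF alone. Against control 4 were higher with both agents and 0 lower, with a median of 0.96 against 0.01 over all probe sets, and 0 to 2 were called higher without 1 of the 4 arrays compared. DUSP6, which encodes a phosphatase of ERK, was one of the 4 (2.61 ± 0.20, limma adjusted p = 0.00618). The call of DUSP6 was lost without control 1, control 2 or EGF plus gefitinib 2. The others were PHLDA1 (2.12 ± 0.25), IER3 (1.54 ± 0.21) and ETV5 (at least 2.765-fold). FOSL1 averaged 9.88 with both agents and 9.87 in control. Of all probe sets 2.19% were called higher against control with both agents.

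Levels are the deposited log2 values, and a change is one group's mean log2 level minus another's, given ± its standard error from limma (n = 2 arrays in each group). A gene was called at a limma adjusted p under 0.05, with Benjamini-Hochberg adjustment over the 21448 probe sets. Bulk RNA cannot tell fewer cells with a transcript from less of it per cell.

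EGF against control addressed the response of starved cells to the ligand. Of the 8 genes 4 rose (MYC, MXD1, MLX and MGA), 1 fell (MXI1), and MAX, MXD3 and MNT were not called. Over all probe sets 11.9% were called, 6.61% higher and 5.3% lower. The arrays of 7 of the 8 genes did not overlap between EGF and control, against 55.5% of all probe sets. Among the 9211 probe sets above the negative-control limit on at least 2 arrays, 23.2% were called in either direction. The second comparison set EGF plus gefitinib against EGF, where 3 fell (MYC, MXD1 and MLX) and 1 rose (MXI1), against 18.7% of all probe sets called, 9.81% lower and 8.86% higher, and 35.5% of the brighter ones in either direction. The arrays of 6 of the 8 did not overlap there, against 57.1% of all probe sets. The third set EGF plus gefitinib against control, where MGA alone of the 8 was called, and higher, against 3.89% of all probe sets called, 2.19% higher and 1.7% lower, and 7.48% of the brighter ones called in either direction. The comparisons share arrays, so they are not independent of each other.

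**Figure D1:**
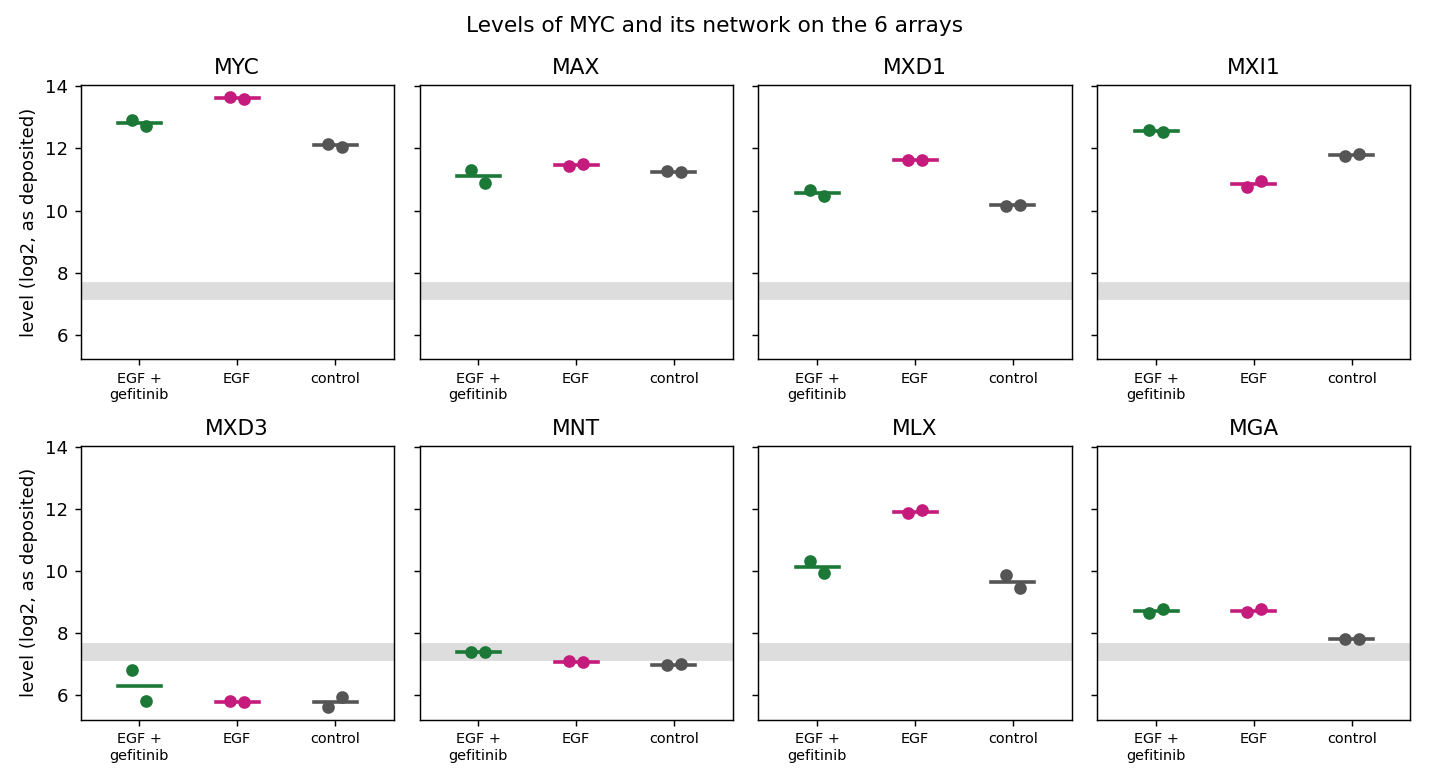
Deposited log2 level of the 8 genes (vertical axis) on the arrays of the EGF plus gefitinib, EGF and control groups (horizontal axis). Points are arrays, bars are means of 2 arrays, and the grey band spans the negative-control limits of the 6 arrays (7.14 to 7.65). MYC, MXD1 and MLX were highest with EGF, MXI1 was lowest there, MGA was lowest in control, and MXD3 and MNT lay at or below the band.

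MYC, the activator of the network, measured 12.92 and 12.73 with EGF plus gefitinib, 13.64 and 13.60 with EGF, and 12.14 and 12.05 in control. The 3 groups did not overlap, and the level with both agents stood between the other two. EGF raised MYC 2.88-fold over control, a difference of 1.52 ± 0.17 (limma, adjusted p = 0.00325). That rise was the 290th largest among the 21448 probe sets. With gefitinib MYC was 0.80 ± 0.17 lower than with EGF alone (adjusted p = 0.0201). This fall was not called without EGF 1 (adjusted p = 0.105), EGF 2 (adjusted p = 0.0918) or EGF plus gefitinib 2 (adjusted p = 0.0771), and its adjusted p ran from 9.55e-05 to 0.105 over the alternatives. Against control, MYC with both agents differed by 0.73 ± 0.17 and did not pass the threshold (adjusted p = 0.0685, 95% interval 0.32 to 1.14). It did pass when only probe sets above the negative-control limit were tested (adjusted p = 0.00934) and with an intensity trend in the variance prior (adjusted p = 0.000707), with adjusted p up to 0.245 over the alternatives.

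MAX, the partner that MYC and its antagonists share, measured 11.32 and 10.89 with EGF plus gefitinib, 11.44 and 11.49 with EGF, and 11.26 and 11.25 in control. The EGF plus gefitinib arrays were spread around the control level. EGF against control gave 0.21 ± 0.20 (limma, adjusted p = 0.586, 95% interval −0.27 to 0.68), and EGF plus gefitinib against EGF gave −0.36 ± 0.20 (adjusted p = 0.28, 95% interval −0.83 to 0.11). With 2 arrays a group, a change of MAX within these intervals is not excluded.

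MXD1, a repressor that pairs with MAX and is known from differentiating epithelia, measured 10.65 and 10.46 with EGF plus gefitinib, 11.61 and 11.63 with EGF, and 10.16 on each control array. The antagonist was thus high on the same arrays as MYC. EGF raised it 2.75-fold over control, by 1.46 ± 0.17 (limma, adjusted p = 0.00368). With gefitinib it was 1.07 ± 0.17 lower than with EGF alone (adjusted p = 0.00645), and both calls were kept under all 12 alternatives. Against control it differed by 0.39 ± 0.17 with both agents and was not called (adjusted p = 0.257).

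MXI1, also called MXD2, represses MYC target genes as a dimer with MAX and is known in other cells as a target of FOXO factors. It measured 12.60 and 12.52 with EGF plus gefitinib, 10.74 and 10.94 with EGF, and 11.75 and 11.81 in control. Where MYC and MXD1 were highest with EGF, MXI1 had its EGF arrays lowest and the EGF plus gefitinib arrays above control. With gefitinib MXI1 was 3.30-fold higher than with EGF alone, by 1.72 ± 0.18 (limma, adjusted p = 0.00117), the 283rd largest rise of all probe sets, and this was called under all 12 alternatives. EGF lowered it 1.92-fold against control, by −0.94 ± 0.18 (adjusted p = 0.0167). Leaving out a control array or an EGF array ended that call each time (−1.04 to −0.84, adjusted p up to 0.11). Against control, EGF plus gefitinib gave 0.78 ± 0.18 (adjusted p = 0.0586, 95% interval 0.37 to 1.19), which passed only among the brighter probe sets (adjusted p = 0.00767) and with the intensity trend (adjusted p = 0.00117), with adjusted p up to 0.232 over the alternatives.

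**Figure D2:**
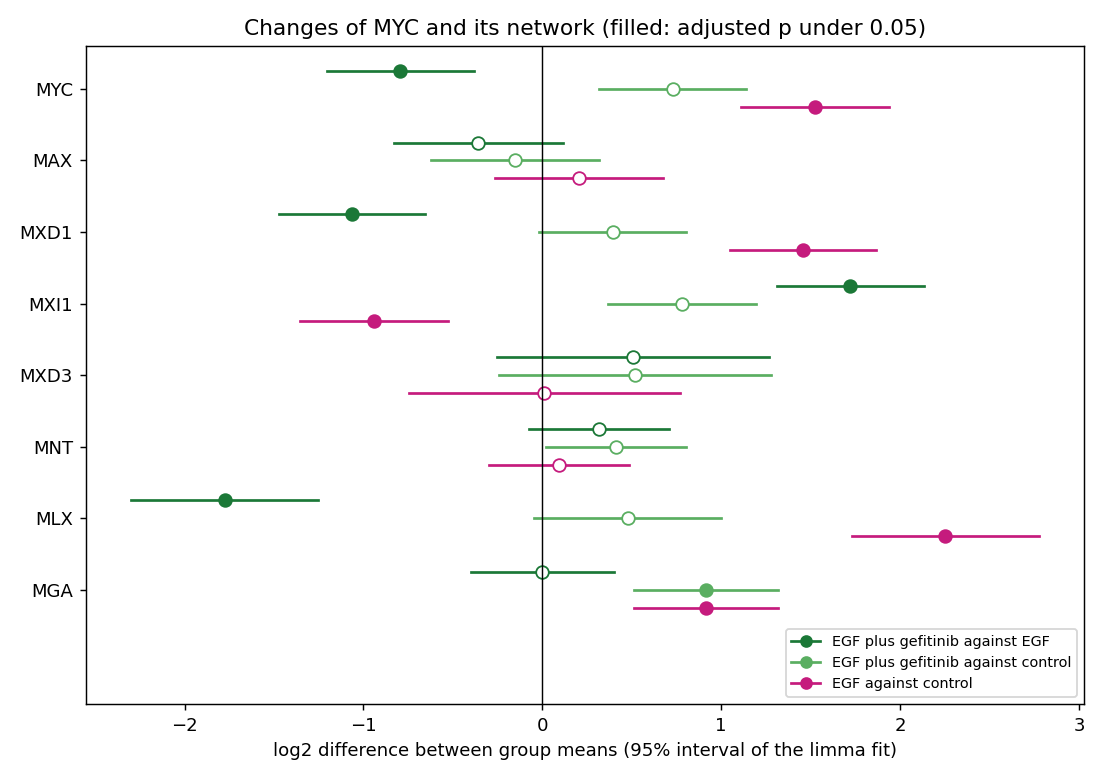
Log2 difference between group means (horizontal axis) of the 8 genes (vertical axis) in the 3 comparisons. Points are limma estimates with 95% intervals, filled where the adjusted p was under 0.05. MYC, MXD1 and MLX lie above 0 for EGF against control and below 0 for EGF plus gefitinib against EGF, MXI1 the other way round, and MGA at 0.92 in both comparisons with control.

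RefSeq gives MXI1 3 start sites on chromosome 10, and its probe set does not tell which of them was used. The promoter windows of 250 bases before to 50 after the start were searched on both strands for the FOXO site GTAAACA, the E-box CACGTG bound by MYC and MAX dimers, and the E2F sites TTTGGCGC and TTTCGCGC. These motifs do not overlap one another in the windows shown. The FOXO letters stood in 2 of the 3 MXI1 windows, and in 3.42% of all 35116 promoter windows. In none of the windows of MAX, MXD1, MXD3, MNT, MLX and MGA were they present. The stretches around both are shown because MXI1 was the only one of the 8 genes called lower with EGF than in control. Their coordinates are chr10:110210030-110210136 for the middle start and chr10:110225944-110226003 for the downstream start (GRCh38.p14, plus strand), with the FOXO letters in capitals, on the reverse strand in the middle stretch.
MXI1 middle start: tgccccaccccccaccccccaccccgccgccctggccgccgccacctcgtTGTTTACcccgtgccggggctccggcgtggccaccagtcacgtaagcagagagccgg
MXI1 downstream start: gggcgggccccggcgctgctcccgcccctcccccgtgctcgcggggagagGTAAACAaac
A match of letters is a description and does not show that a factor binds there.

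The other repressors of the network were dim. MXD3, an antagonist expressed in proliferating cells, measured 6.81 and 5.81 with EGF plus gefitinib, 5.82 and 5.79 with EGF, and 5.62 and 5.96 in control, below the negative-control limit on all 6 arrays. It was not called in any comparison (limma, adjusted p = 0.342 to 0.989) and has no fold. MNT, a widely expressed antagonist, measured 7.40 and 7.41 with EGF plus gefitinib, 7.11 and 7.06 with EGF, and 6.98 and 7.01 in control. It passed the negative-control limit only on the array EGF plus gefitinib 2. Its groups did not overlap in any comparison, and in the third comparison the same held for 6 of the 8 genes and 50.4% of all probe sets. The differences were 0.32 ± 0.17 against EGF (adjusted p = 0.248) and 0.41 ± 0.17 against control (adjusted p = 0.218).

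MLX, the partner of MLXIP and MLXIPL, showed the largest rise of the 8 genes with EGF. It measured 10.33 and 9.96 with EGF plus gefitinib, 11.86 and 11.98 with EGF, and 9.87 and 9.47 in control. The EGF arrays stood well above the other four, whose groups lay close together. EGF raised MLX 4.77-fold over control, by 2.25 ± 0.22 (limma, adjusted p = 0.0019), the 83rd largest rise of all probe sets. With gefitinib it was 3.43-fold lower than with EGF alone, by −1.78 ± 0.22 (adjusted p = 0.00243). Both calls were kept under all 12 alternatives. Against control it differed by 0.48 ± 0.22 with both agents (adjusted p = 0.281, 95% interval −0.05 to 1.0).

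Of the 7 measured genes whose windows were searched (MAX, MXD1, MXD3, MXI1, MNT, MLX and MGA), MLX and MNT, both on chromosome 17, held the E-box CACGTG, which is in 7.26% of all windows. The MYC promoter was not searched here. They are shown because the network reads these letters. The stretches are chr17:42567000-42567105 for MLX (plus strand) and chr17:2401198-2401303 for MNT (minus strand, both GRCh38.p14), with the E-box in capitals. The palindrome reads the same on either strand.
MLX: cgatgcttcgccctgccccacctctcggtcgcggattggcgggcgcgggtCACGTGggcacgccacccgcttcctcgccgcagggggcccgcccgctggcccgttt
MNT: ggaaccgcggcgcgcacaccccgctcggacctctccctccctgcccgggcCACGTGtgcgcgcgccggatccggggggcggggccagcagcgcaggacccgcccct
MLX rose 4.77-fold with EGF, and MNT lay within the negative-control range with EGF and in control.

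MGA, a large scaffold with a T-box as well as a MAX-binding domain, measured 8.67 and 8.78 with EGF plus gefitinib, 8.67 and 8.77 with EGF, and 7.80 and 7.81 in control. The 4 EGF-treated arrays lay together and above both controls, whether or not gefitinib was present. EGF raised MGA 1.89-fold over control, by 0.92 ± 0.17 (limma, adjusted p = 0.0166). Leaving out either control or either EGF array ended that call (0.87 to 0.96, adjusted p up to 0.103). EGF plus gefitinib differed from control by 0.92 ± 0.17 as well (adjusted p = 0.0372), a call lost in 8 of 12 alternatives. It was lost without any 1 of the 6 arrays (0.86 to 0.97, adjusted p = 0.0756 to 0.171), in the fit of only these 2 groups (adjusted p = 0.0756) and with the replicate block (adjusted p = 0.0695). EGF plus gefitinib differed from EGF by 0.000145 ± 0.17 (adjusted p = 1), with a 95% interval of −0.40 to 0.40, so a difference within it is not excluded. RefSeq gives MGA 3 windows on chromosome 15, of which 1 holds the E2F letters TTTGGCGC. The E2F letters are found in 1.15% of all windows, and the stretch is shown because E2F6, a member of the MGA complex, binds E2F sites. It is chr15:41660632-41660739 (GRCh38.p14, plus strand), with the E2F letters in capitals.
MGA: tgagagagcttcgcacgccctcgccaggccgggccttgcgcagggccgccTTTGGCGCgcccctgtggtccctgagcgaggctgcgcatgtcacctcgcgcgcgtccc

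Genes with a pattern like that of a member were sought over the 6 arrays by the mean absolute difference between deviations from each gene's own mean, among 6742 other genes above the negative-control limit on every array. Closest to MYC was BHLHE40 (0.0714), a helix-loop-helix repressor that binds E-boxes, against a median of 0.6 over all genes compared. BHLHE40 measured 12.67 and 12.54 with EGF plus gefitinib, 13.32 and 13.43 with EGF, and 11.76 and 11.72 in control. It was followed by POLR1G (0.0837), a subunit of RNA polymerase I, SINHCAF (0.0896), a subunit of a SIN3 histone deacetylase complex, SGMS2 (0.104) and RSAD2 (0.115). The order of the groups in these genes follows from how they were chosen.

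Closest to MXD1 were SEMA4B (0.0756), IFNGR2 (0.081), a chain of the interferon gamma receptor, REXO4 (0.0867), NOC3L (0.0963) and TBX1 (0.0965). Closest to MLX were CSF1 (0.0883), a cytokine of macrophages, PVR (0.109), the transcription factor IRF1 (0.13), OSMR (0.167) and SOX9 (0.173). Closest to MXI1 were NPIPA3 (0.0595), GABPB2 (0.0714), NPIPA1 (0.0736), SREBF1 (0.0745), which encodes a regulator of lipid synthesis, and CUL4B (0.0792). NPIPA3 and NPIPA1 are near-identical copies, so their values are not independent. Closest to MGA was IER5 (0.0235), an immediate early gene, which measured 10.49 and 10.62 with EGF plus gefitinib, 10.55 and 10.62 with EGF, and 9.69 and 9.71 in control. E2F7 (0.0556), TGFBR2 (0.0655), OSBPL10 (0.0701) and ATAD1 (0.0726) came after it.

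**Figure D3:**
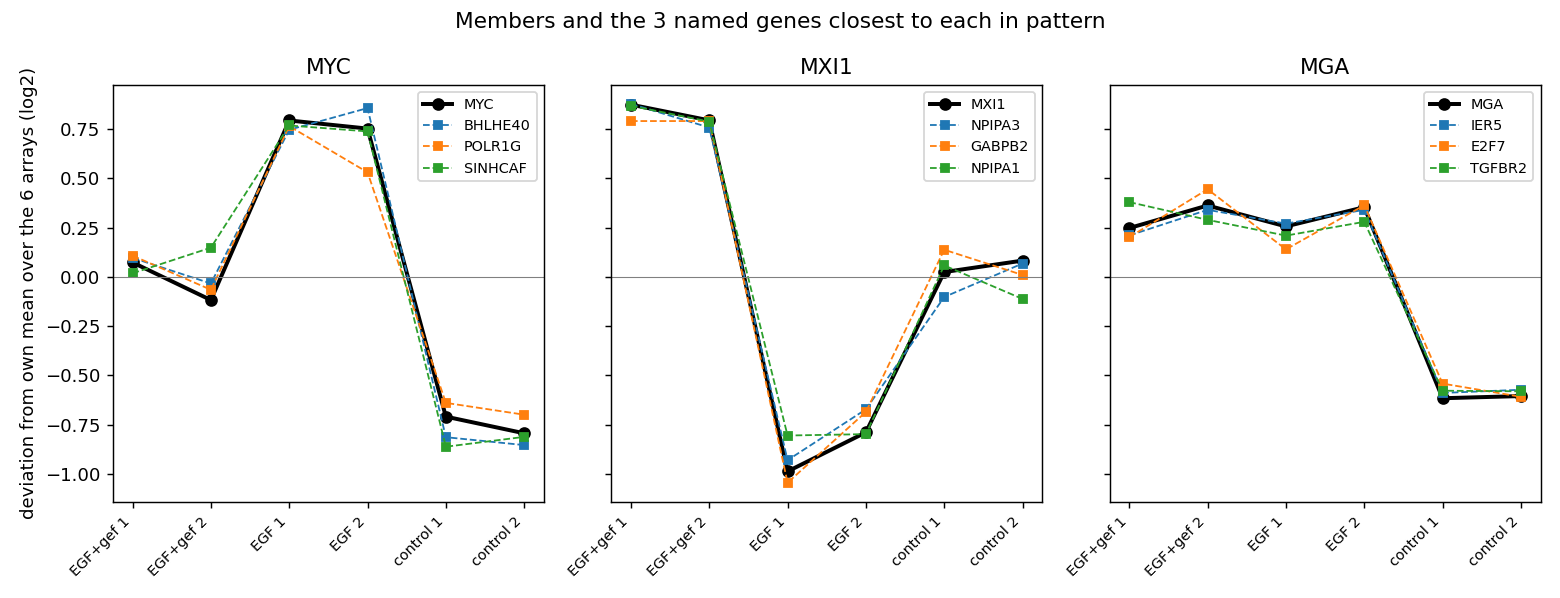
Deviation from the gene's own mean over the 6 arrays (log2, vertical axis) on each array (horizontal axis) for MYC, MXI1 and MGA, each with the 3 genes closest to it. MYC has its EGF plus gefitinib arrays between the EGF and control arrays, MXI1 is lowest with EGF, and MGA is high on all 4 EGF-treated arrays.

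Targets that MYC activates were read from a list of 25 genes, of which 19 had a probe set. With EGF 7 rose and 0 fell, against 6.61% of all probe sets called higher and 5.3% lower, and 23.2% of the brighter ones in either direction. The list median was 0.40 against −0.03 over all probe sets. Leaving out 1 of the 4 arrays compared left 1 to 3 of the rises. With EGF plus gefitinib 10 were lower than with EGF alone and 0 higher, with a median of −0.60 against 0.05 over all probe sets, and 5 to 8 were called lower without 1 of the 4 arrays. Over all probe sets 9.81% were called lower with EGF plus gefitinib than with EGF alone, and 35.5% of the brighter ones in either direction. Against control, 2 were lower with both agents, where 1.7% of all probe sets were called lower and 7.48% of the brighter ones in either direction.

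SRM, spermidine synthase, measured 10.71 and 10.50 with EGF plus gefitinib, 13.64 and 13.77 with EGF, and 12.51 and 12.21 in control. It was 8.58-fold lower with gefitinib than with EGF alone (−3.10 ± 0.20, limma adjusted p = 0.000264), and also lay below control (−1.76 ± 0.20, adjusted p = 0.0111), where both MYC arrays lay above control. The call against control was lost without control 1, control 2, EGF plus gefitinib 1 or EGF plus gefitinib 2. SRM rose with EGF (1.34 ± 0.20, adjusted p = 0.00708), which was lost without control 2 or EGF 2. RRS1, a ribosome assembly factor, measured 8.20 and 7.97 with EGF plus gefitinib, 10.63 and 10.82 with EGF, and 8.72 and 8.70 in control, a rise of 2.01 ± 0.18 with EGF (adjusted p = 0.00159).

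Further rises with EGF were those of PPAT, which starts purine synthesis (1.05 ± 0.20), and MRTO4, a ribosome factor (1.28 ± 0.26), and neither was called without control 2, EGF 1 or EGF 2, nor PPAT without control 1. Lower with gefitinib than with EGF alone were EIF4E, the cap-binding protein (−1.84 ± 0.22), and NOLC1, a nucleolar protein (−1.25 ± 0.18), and these calls held in all 12 alternatives. PAICS, a purine synthesis enzyme, was lower with both agents than in control (−0.95 ± 0.18, adjusted p = 0.0372), a call lost without any 1 of the 6 arrays.

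Of 11 measured targets that MYC represses 2 rose and 0 fell with EGF, with a median of 0.01 against −0.03 over all probe sets, and 11.9% of all and 23.2% of the brighter probe sets were called there. They were CDKN1A, the cell cycle inhibitor p21 (2.19 ± 0.27, limma adjusted p = 0.00416), and NDRG1, a stress-response gene (1.07 ± 0.22, adjusted p = 0.0228). The call of NDRG1 was lost without control 1, control 2 or EGF 2. With EGF plus gefitinib GADD45A, a growth arrest gene, DDIT3, a stress transcription factor, and CDKN1B, the cell cycle inhibitor p27, were higher than with EGF alone (1.64 ± 0.19, 2.31 ± 0.27 and 1.56 ± 0.20), while NDRG1 was lower (−0.88 ± 0.22, adjusted p = 0.0315). DDIT3 was within the negative-control range with EGF, so its rise is at least 1.29-fold. Over all probe sets 3.89% were called with both agents against control. Between EGF plus gefitinib and EGF alone 18.7% were called, and 35.5% of the brighter ones. The call of NDRG1 in this comparison was lost in 7 of 12 alternatives. Against control GADD45A, DDIT3, CDKN1B and CDKN1A were higher with both agents, and 0 to 1 of the 4 without 1 of the 4 arrays compared.

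The glucose-responsive arm of the network was read from MLXIP, MLXIPL and 7 targets. MLXIP averaged 8.48 ± 0.19 with EGF plus gefitinib, 8.69 ± 0.13 with EGF and 8.51 ± 0.16 in control (SD, n = 2). EGF against control gave 0.17 ± 0.20 for MLXIP (limma, adjusted p = 0.643, 95% interval −0.29 to 0.64), where MLX had risen. MLXIPL, MYCN and MYCL lay within the negative-control range in all 3 groups. None of these 4 paralogs was called by limma in any comparison, and 0 had an unadjusted p under 0.05.

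TXNIP, the best known MondoA target, measured 11.35 and 11.42 with EGF plus gefitinib, 5.74 and 5.84 with EGF, and 10.39 and 10.11 in control. Its order was that of MXI1, with the EGF arrays lowest, where those of MLX were highest. With EGF it was at least 7.32-fold lower than in control (limma, adjusted p = 0.000128), and with gefitinib at least 16.2-fold higher than with EGF alone (adjusted p = 3.52e-05). HK2, a hexokinase that is also a MYC and hypoxia target, rose at least 4.56-fold with EGF (adjusted p = 0.00462) and was lower with gefitinib than with EGF alone (−2.31 ± 0.32, adjusted p = 0.00344). PFKFB3, a regulator of glycolysis, was lower with gefitinib than with EGF alone (−0.83 ± 0.17, adjusted p = 0.0158), a call lost without EGF 1, EGF 2 or EGF plus gefitinib 1. The other four targets (ARRDC4, KLF10, PKLR and G6PC1) were not called in any comparison.

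**Figure D4:**
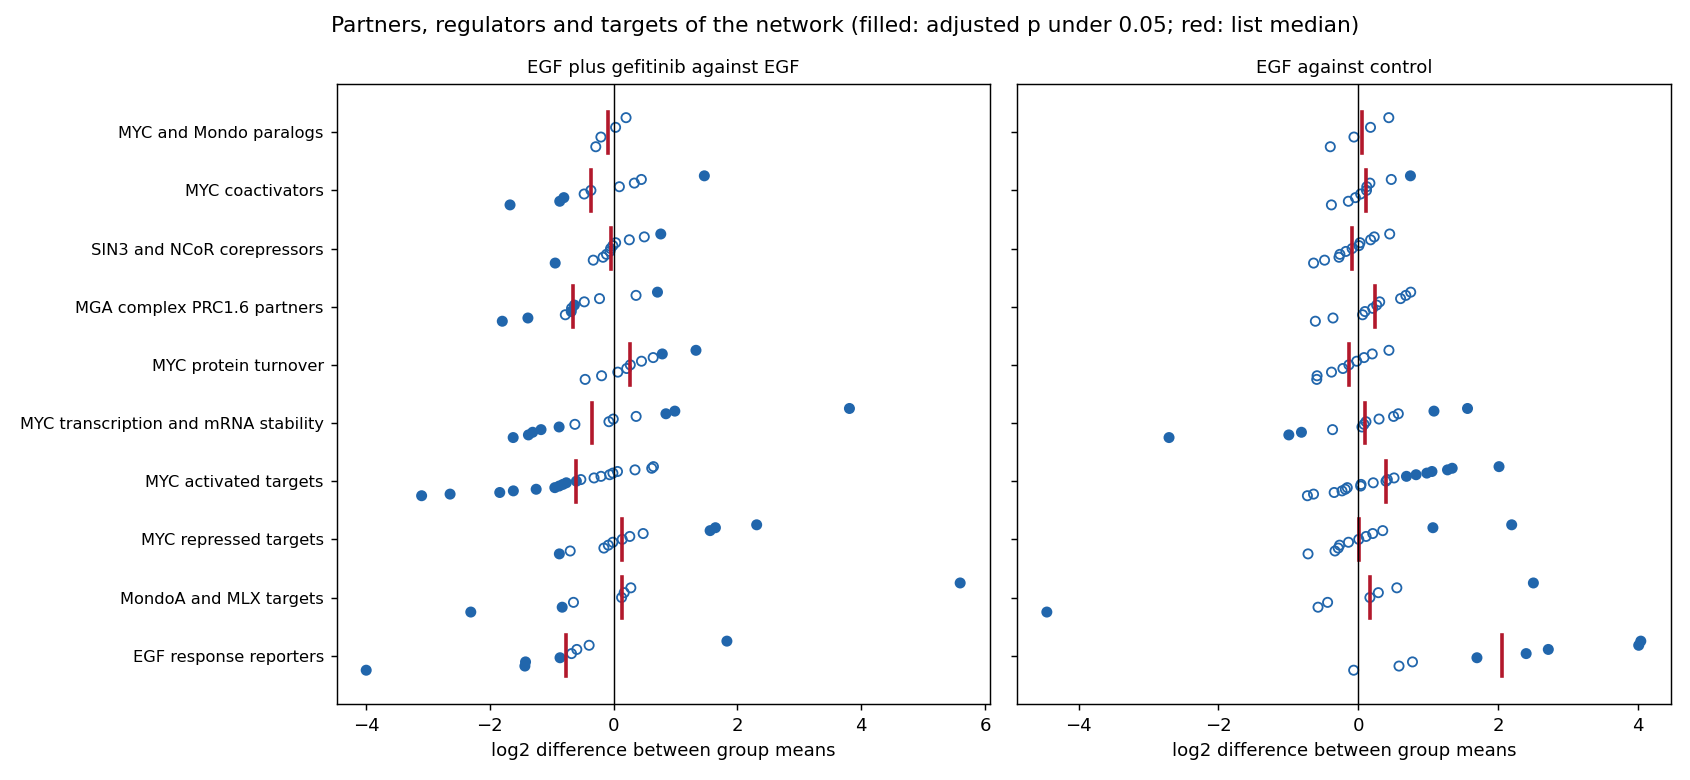
Log2 difference between group means (horizontal axis) of the measured genes of 10 lists (vertical axis), for EGF plus gefitinib against EGF (left) and EGF against control (right). Points are genes, filled where the adjusted p was under 0.05, and red bars are list medians. MYC activated targets have 10 genes called lower on the left and 7 called higher on the right, while the corepressors have 1 called each way on the left and 0 on the right. Of all probe sets 9.81% were called lower and 8.86% higher on the left, and 6.61% higher and 5.3% lower on the right.

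Of 9 MYC coactivators, all bright, 1 was called with EGF, where 11.9% of all and 23.2% of the brighter probe sets were. Between EGF plus gefitinib and EGF alone 1 was higher and 3 were lower, where 18.7% of all and 35.5% of the brighter probe sets were called. Both counts are near the shares of the brighter probe sets, so they are no result about the coactivators as a group. RUVBL1, an ATPase of chromatin remodelling complexes, measured 9.56 and 9.48 with EGF plus gefitinib, 11.12 and 11.26 with EGF, and 10.67 and 10.77 in control (−1.67 ± 0.17 against EGF, limma adjusted p = 0.00122). CREBBP, a histone acetyltransferase, was higher (1.47 ± 0.19, adjusted p = 0.00262). Both calls held in all 12 alternatives. WDR5, which helps MYC bind chromatin, was lower (−0.80 ± 0.17) and had risen with EGF (0.75 ± 0.17), and ACTL6A, a remodelling subunit, was lower (−0.87 ± 0.21). The call of WDR5 with EGF was lost with the replicate block and without control 1, control 2, EGF 1 or EGF 2. Its call with gefitinib was lost without EGF 1, EGF 2 or EGF plus gefitinib 2, and the call of ACTL6A in 7 of 12 alternatives. With both agents against control, RUVBL1 was lower (−1.20 ± 0.17) and CREBBP higher (1.08 ± 0.19), and neither was called without any 1 of the 6 arrays.

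Of 11 SIN3 and NCoR corepressor genes, 9 of them bright, limma called 0 with EGF, where 2 had an unadjusted p under 0.05. There 11.9% of all and 23.2% of the brighter probe sets were called. With EGF plus gefitinib HDAC2, a histone deacetylase, was lower than with EGF alone (−0.94 ± 0.17, adjusted p = 0.00955), which was lost without EGF 2. SIN3A, the scaffold that MXD proteins bind, was higher (0.76 ± 0.21, adjusted p = 0.042), which was lost in 7 of 12 alternatives, median centring among them. In that comparison 18.7% of all and 35.5% of the brighter probe sets were called. The calls of HDAC2 and SIN3A are therefore no result about the corepressors as a group. Against control limma called 0 with both agents, and 2 had an unadjusted p under 0.05. Of all probe sets 3.89% were called there, and 7.48% of the brighter ones.

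Of 10 measured partners of MGA in its Polycomb complex, 8 of them bright, limma called 0 with EGF, where MGA had risen (3 had an unadjusted p under 0.05). Of all probe sets 11.9% were called there, and 23.2% of the brighter ones. With EGF plus gefitinib 4 were lower and 1 was higher than with EGF alone, with a list median of −0.66 against 0.05 over all probe sets. In that comparison 9.81% of all probe sets were called lower and 8.86% higher, and 35.5% of the brighter ones in either direction. L3MBTL2, a reader of the complex, was at least 2.01-fold lower (adjusted p = 0.00201), and that call held in all 12 alternatives. It was also lower than in control (at least 1.20-fold, adjusted p = 0.0465), which was lost without any 1 of the 6 arrays. E2F6, its DNA-binding subunit, was lower too (adjusted p = 0.00718), though neither group exceeded the negative-control limit. The histone methyltransferases EHMT1 (−0.63 ± 0.17) and EHMT2 (0.71 ± 0.17) differed in sign. Neither was called without any 1 of the 6 arrays or in the fit of only these 2 groups, and EHMT1 was lost in 9 of 12 alternatives, quantile normalization among them. TFDP1, the partner of E2F proteins, was lower by −0.68 ± 0.19 (adjusted p = 0.0422) and was named after its values were seen. The call of TFDP1 was lost without EGF 1, EGF 2, EGF plus gefitinib 1 or EGF plus gefitinib 2.

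Regulators of MYC itself were split into those of its gene and transcript and those of its protein. HBP1, a repressor known to act on MYC, measured 13.39 and 13.62 with EGF plus gefitinib, 9.81 and 9.58 with EGF, and 12.39 and 12.42 in control, an order like that of MXI1. EGF lowered it 6.53-fold against control (limma, adjusted p = 0.000593). Of the 12 measured genes of this group, 10 of them bright, 2 rose and 3 fell with EGF. There 6.61% of all probe sets were called higher and 5.3% lower, and 23.2% of the brighter ones in either direction. FUBP1, which binds single-stranded DNA upstream of MYC, rose (1.08 ± 0.18, adjusted p = 0.0112), and TCF7L2, a Wnt effector, fell (−0.99 ± 0.20, adjusted p = 0.0207), and both calls were lost without control 1, control 2, EGF 1 or EGF 2. The remaining calls were PRDM1 and E2F1. No array of either group showed PRDM1 above the negative-control limit. E2F1 was at least 1.20-fold lower with EGF (adjusted p = 0.0327) and was named after its values were seen. The calls of PRDM1 and E2F1 were also lost without control 1, control 2, EGF 1 or EGF 2.

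With EGF plus gefitinib 3 genes of that group were higher and 5 lower than with EGF alone, and 3 to 5 of the lower ones were called without 1 of the 4 arrays. FUBP1 (−1.38 ± 0.18, adjusted p = 0.00278), its partner PUF60 (−1.62 ± 0.17, adjusted p = 0.00123) and HNRNPD, an RNA-binding protein that destabilises MYC mRNA (−1.31 ± 0.17, adjusted p = 0.00269), were lower under all 12 alternatives. HBP1 was higher by 3.81 ± 0.19 (adjusted p = 0.00015). Of the 4 others called, ELAVL1 and PRDM1 were lower and FOXO3 and TCF7L2 higher, and these 4 were named after their values were seen. In no fit without 1 of the 4 arrays compared did the calls of FOXO3 and TCF7L2 both hold. Over all probe sets 18.7% were called in this comparison, and 35.5% of the brighter ones. Against control with both agents, where 3.89% of all and 7.48% of the brighter probe sets were called, HNRNPD and PUF60 were lower (−1.20 ± 0.17 and −1.05 ± 0.17). HBP1 and FOXO3 were higher (1.10 ± 0.19 and 1.07 ± 0.20). E2F1 was at least 1.12-fold lower (adjusted p = 0.049). None of these genes, E2F1 included, was called without control 1, control 2, EGF plus gefitinib 1 or EGF plus gefitinib 2.

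Of 9 genes of MYC protein turnover, all bright, limma called 0 with EGF (2 had an unadjusted p under 0.05) and 0 with both agents against control (2 again). Among the brighter probe sets 23.2% and 7.48% were called in these comparisons. With EGF plus gefitinib USP28, a deubiquitinase that stabilises MYC, was higher than with EGF alone (0.79 ± 0.17, adjusted p = 0.0178), as was HUWE1, a ubiquitin ligase of MYC (1.33 ± 0.29, adjusted p = 0.0187). Neither was called without EGF 1, EGF 2 or EGF plus gefitinib 2, nor USP28 without EGF plus gefitinib 1. FBXW7, the ligase best known for degrading MYC, gave 0.07 ± 0.21 in that comparison (adjusted p = 0.87). There 18.7% of all and 35.5% of the brighter probe sets were called. The calls of USP28 and HUWE1 are therefore no result about the turnover genes as a group.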

How the data were processed

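The authors deposited 1 log2 value per probe set and array, the scale being read from the values. The submitters' processing notes name Transcriptome Analysis Console. Its version, background step and normalization were not given in the sources used here. Per the labels' protocols, the WT PLUS kit served for labelling. The values were used as deposited. Of 24351 probe sets 2903 controls were left out and 21448 were tested without a filter. The platform annotation named 17709 of them with 1 symbol and did not list 3739. The background limit of an array was the 95th percentile of its 612 negative-control probe sets. A group at or below it on both arrays has only a bound, and folds against it are "at least": on each array of the dimmer group the larger of limit and measured value was taken, and their mean was set under the mean of the brighter group.

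The comparisons used lmFit and eBayes of limma 3.58.1 under R 4.3.3, in 1 fit of 3 group means, with 3 residual and 4.22 prior degrees of freedom, two-sided, with Benjamini-Hochberg adjustment. The fit was tested on simulated data. The members, the 10 other lists (117 entries, 100 measured), the promoter motifs and the rule for named genes were chosen with earlier results of these data known. All members were named, up to 4 called genes of a list per comparison with the largest absolute moderated statistic, and the 5 genes most like MYC or like a member called in at least 2 comparisons. Promoter sequences are those of RefSeq (GRCh38.p14), which matched 8 of the 9 genes, MYC not among them. The coordinates belong to that table, since no build is named for the array values. Alternatives were a filter on dim probe sets, quantile normalization, median centring, an intensity trend, a replicate block, a fit of only the groups compared and leaving out each array.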

Additional observations from a re-analysis of the deposited data

How the results depend on the processing

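Of 282 recomputed changes of the 8 genes 252 kept their direction and side of the threshold, 19 lost a call, 5 gained one and 6 changed sign. All sign changes concerned uncalled differences. They were MGA with EGF plus gefitinib against EGF under median centring (−0.07297) and without 1 array (−0.05707 and −0.04867, range −0.05707 to 0.05737), MXD3 for EGF against control (−0.1615 and −0.006895, range −0.16 to 0.18) and MAX for EGF plus gefitinib against control (range −0.36 to 0.06). MXD3 was called with gefitinib against EGF only without EGF plus gefitinib 2 (1.004). Called probe sets for EGF against control (2554) became 3945 with the filter on dim probe sets and 4237 with an intensity trend, and 726 to 2506 without 1 array, with 3 to 5 of the 8 genes. For EGF plus gefitinib against EGF (4005) they were 1889 to 3406 without 1 array, with 3 to 4 of the 8. For EGF plus gefitinib against control (834) they became 2538 with the filter and 2770 with the trend, with 3 of the 8 genes each, and 247 with only those 2 groups, with 0. Without 1 array they were 0 to 247 with 0 of the 8, where limma gave 3 to 6 of the 8 an unadjusted p under 0.05. The 0 probe sets arose without control 1 and without EGF plus gefitinib 2, where 3280 and 3810 had an unadjusted p under 0.05. The cause of these shifts was not tested. Same-numbered arrays did not deviate together over the probe sets (correlations −0.041, 0.0213 and −0.00354). Whether same-numbered samples were handled together is not labelled. With the replicate block, 2040, 3489 and 333 probe sets were called for EGF against control, EGF plus gefitinib against EGF, and EGF plus gefitinib against control, with 5, 4 and 0 of the 8 genes. Another probe set of a gene could not be tried, since each has 1. Dim signal limits MXD3 and MNT.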
